A study of Mus musculus with 8 samples.

Results

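The genes described here bring glucose into the cell and break it down to lactate: 2 glucose transporters (Slc2a1 and Slc2a3) and 8 glycolytic enzymes (Hk1, Hk2, Pfkl, Aldoa, Tpi1, Pgk1, Pgam1 and Ldha). They were followed in memory CD4 T cells, with and without the gene Rictor, on microarrays. The members were the probe sets annotated to 1 of these 10 gene symbols alone. Of 18193 genes with such a probe set on the array, these are 10, and they had 26 probe sets. One further probe set, shared between Hk1 and other genes, was left out. A probe set is a group of short probes that read 1 transcript, and its signal is an intensity on a linear scale. Of the 26 probe sets, 23 lay above the median of their array on at least 2 of the 8 arrays and were tested. The other 3 (1 of Hk1 and 2 of Slc2a3) were too dim.

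Glucose enters T cells through the facilitative transporters encoded by Slc2a1 (GLUT1) and Slc2a3 (GLUT3). Hexokinases trap it as glucose phosphate, phosphofructokinase commits it to glycolysis, aldolase splits the sugar, and the enzymes that follow make ATP and pyruvate, which lactate dehydrogenase turns into lactate. T cells raise this pathway when they are activated, and resting memory cells run it at a lower rate. Rictor belongs to mTOR complex 2 and not to mTOR complex 1. This kinase complex phosphorylates AKT, and AKT acts on glucose transporters and hexokinase in many cell types. The transcription factors HIF-1 and MYC are known to drive many of these genes.

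There were 4 groups of 2 arrays: T follicular helper (Tfh) cells labelled Rictor-null, Tfh cells of wild-type (WT) mice, T helper 1 (Th1) cells labelled Rictor-null, and Th1 cells of WT mice. All 4 groups held memory CD4 T cells sorted from spleen at day 60 after infection with LCMV Armstrong, a virus strain that mice clear. Each array carried RNA of a pool of at least 10 mice, and 100 ng of total RNA had been labelled per array. Not given in the sources used here are the way and the cells in which Rictor had been deleted, the sort gates, and the age and sex of the mice. With 2 arrays a group, p-values measure the spread between pools, and an exact permutation test of 2 against 2 arrays cannot give a two-sided p under 0.333. In bulk RNA, fewer cells of a kind and less RNA per cell cannot be told apart.

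Median signals of the arrays lay between 35.7 and 37.7. On the log2 scale, replicates of Tfh cells differed by a root mean square SD of 0.116 (Rictor-null) and 0.0584 (WT), and replicates of Th1 cells by 0.0843 (Rictor-null) and 0.0909 (WT). None of the 5 Rictor probe sets fell in Rictor-null cells, and the brightest read 563 and 576 in Rictor-null Tfh cells, against 560 and 563 in WT Tfh, and for Th1 cells 493 and 474 in Rictor-null arrays, against 468 and 556 in WT arrays. The dimmest was higher by 0.30 in Rictor-null Tfh cells (limma adjusted p = 0.0366). Which exons had been removed is not stated in these sources, so the probes do not check the labels, and the groups are called by their labels. Of 6 tested genes of Rictor and the mTOR complexes, 1 was called between genotypes by its brightest probe set, Prr5l. It was higher in Rictor-null Tfh cells (0.89, limma adjusted p = 0.000407) and in Rictor-null Th1 cells (1.33, limma adjusted p = 3.46e-05). The Tfh genes Cxcr5 and Bcl6 were higher in Tfh than in Th1 cells, by 1.85 and 0.83 in Rictor-null cells and by 1.36 and 0.48 in WT cells. The defining Th1 genes Tbx21 (-0.01 and -0.07) and Ifng (0.12 and 0.09) did not pass the test in Rictor-null or WT cells. Cxcr6, a chemokine receptor gene of Th1 cells, was lower in Tfh cells by 1 probe set in each genotype (1422812_at, -0.58 in Rictor-null cells, limma adjusted p = 0.0186, and 1425832_a_at, -0.39 in WT cells, limma adjusted p = 0.0492), while the other value of each did not pass (-0.23 in WT and -0.30 in Rictor-null cells).

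Promoter sequences are shown for 3 members with a rise in Rictor-null cells (Slc2a1, Hk2 and Tpi1) and for 2 members without one (Pgk1 and Ldha), so that the starts of members with different behaviour can be set side by side. Each is the 250 bases before the first base of a RefSeq transcript in GRCm38.p6, written 5′ to 3′ along the gene. Capitals mark each match to ACGTG, the core of the element that HIF-1 is known to bind, on either strand. The windows are chr4:119108495-119108744 on the plus strand for Slc2a1, chr6:82774455-82774704 on the minus strand for Hk2, chr6:124814159-124814408 on the minus strand for Tpi1, chrX:106186850-106187099 on the plus strand for Pgk1 and chr7:46845554-46845803 on the plus strand for Ldha.
Slc2a1: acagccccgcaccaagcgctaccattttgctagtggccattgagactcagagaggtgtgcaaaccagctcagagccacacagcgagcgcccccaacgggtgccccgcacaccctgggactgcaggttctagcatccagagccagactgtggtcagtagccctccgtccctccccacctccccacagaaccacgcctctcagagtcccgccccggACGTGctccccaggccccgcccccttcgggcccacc
Hk2: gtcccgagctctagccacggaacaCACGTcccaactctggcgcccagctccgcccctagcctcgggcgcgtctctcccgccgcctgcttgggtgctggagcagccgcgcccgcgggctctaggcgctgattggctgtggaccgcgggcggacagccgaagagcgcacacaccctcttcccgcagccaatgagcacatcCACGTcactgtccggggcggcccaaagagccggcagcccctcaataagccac
Tpi1: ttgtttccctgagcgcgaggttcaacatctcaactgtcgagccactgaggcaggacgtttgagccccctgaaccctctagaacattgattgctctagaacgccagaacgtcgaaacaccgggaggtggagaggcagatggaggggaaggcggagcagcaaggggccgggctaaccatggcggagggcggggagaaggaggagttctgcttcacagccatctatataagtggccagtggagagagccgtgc
Pgk1: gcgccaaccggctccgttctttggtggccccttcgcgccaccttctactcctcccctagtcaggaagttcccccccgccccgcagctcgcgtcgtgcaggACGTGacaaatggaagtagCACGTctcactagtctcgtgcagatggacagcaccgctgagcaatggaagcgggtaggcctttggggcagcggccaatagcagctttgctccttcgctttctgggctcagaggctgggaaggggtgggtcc
Ldha: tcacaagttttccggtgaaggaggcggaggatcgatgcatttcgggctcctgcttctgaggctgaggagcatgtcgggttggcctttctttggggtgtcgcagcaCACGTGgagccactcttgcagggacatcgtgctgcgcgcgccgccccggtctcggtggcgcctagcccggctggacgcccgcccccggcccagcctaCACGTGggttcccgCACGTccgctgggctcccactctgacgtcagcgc

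The Slc2a1 window held 1 match to ACGTG, the Hk2 and Pgk1 windows 2 each, the Ldha window 5 and the Tpi1 window 0. In the Ldha window 2 of the sites read CACGTG, the E-box that MYC with MAX is known to bind, and each such site counts as a match on both strands. GCGTG matched 1 time in the Slc2a1 window and 0 times in the windows shown for Hk2, Tpi1, Pgk1 and Ldha. Of all 32851 windows of this length, 16.6% held ACGTG, 28.2% held GCGTG and 6.02% held CACGTG on either strand. Of the members, 9 had an entry, with 13 windows between them, and 7 windows of 6 genes held ACGTG. Slc2a3 had no entry. Ldha had a second window, chr7:46846832-46847081, which is not shown and held 0 matches to ACGTG. A match of letters is a description and says nothing about binding in these cells.

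In Rictor-null Tfh cells, 6 of the 23 tested probe sets rose against WT Tfh and 0 fell. They belong to Slc2a3, Slc2a1 and Tpi1. Of all 23725 probe sets tested, 10.1% were called in this comparison, 8.46% higher and 1.61% lower. The median difference of the members was 0.13 on the log2 scale, against 0.04 over all probe sets. The signals of the 2 genotypes did not overlap in 11 member probe sets that were higher and 1 that was lower in Rictor-null Tfh cells. Over all probe sets, 39% were higher and 19.5% lower without overlap.

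In Rictor-null Th1 cells, 6 member probe sets rose against WT Th1 and 1 fell. The rises were again in Slc2a3, Tpi1 and Slc2a1, with Hk2 in addition, and the fall was in 1 probe set of Pfkl. Over all probe sets 8.75% were called, 6.39% higher and 2.36% lower. The member median was 0.04 and that of all probe sets 0.00. Without overlap, 11 member probe sets were higher and 5 lower, beside 28.8% and 26.2% of all probe sets. Probe sets of Slc2a3, Slc2a1 and Tpi1 rose in both cell types. Both comparisons use a spread estimated over all groups together, so the calls in Tfh and Th1 cells are not independent. How many of all probe sets rose in both was not counted. When the arrays were quantile normalized again, the calls of members were 4 higher and 1 lower in Tfh cells, and 2 higher and 3 lower in Th1 cells. The rises that stayed were those of Slc2a3 in both cell types and of Tpi1 in Tfh cells. Lost were all Slc2a1 rises and, in Th1 cells, those of Hk2 and Tpi1 (limma adjusted p between 0.0591 and 0.0887). The Tfh count was 3 without either WT Tfh array. The Th1 count was 2, the 2 Slc2a3 probe sets, when only the 4 Th1 arrays were fitted, and likewise without WT Th1 replicate 1 or either Rictor-null Th1 array.

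**Figure D1:**
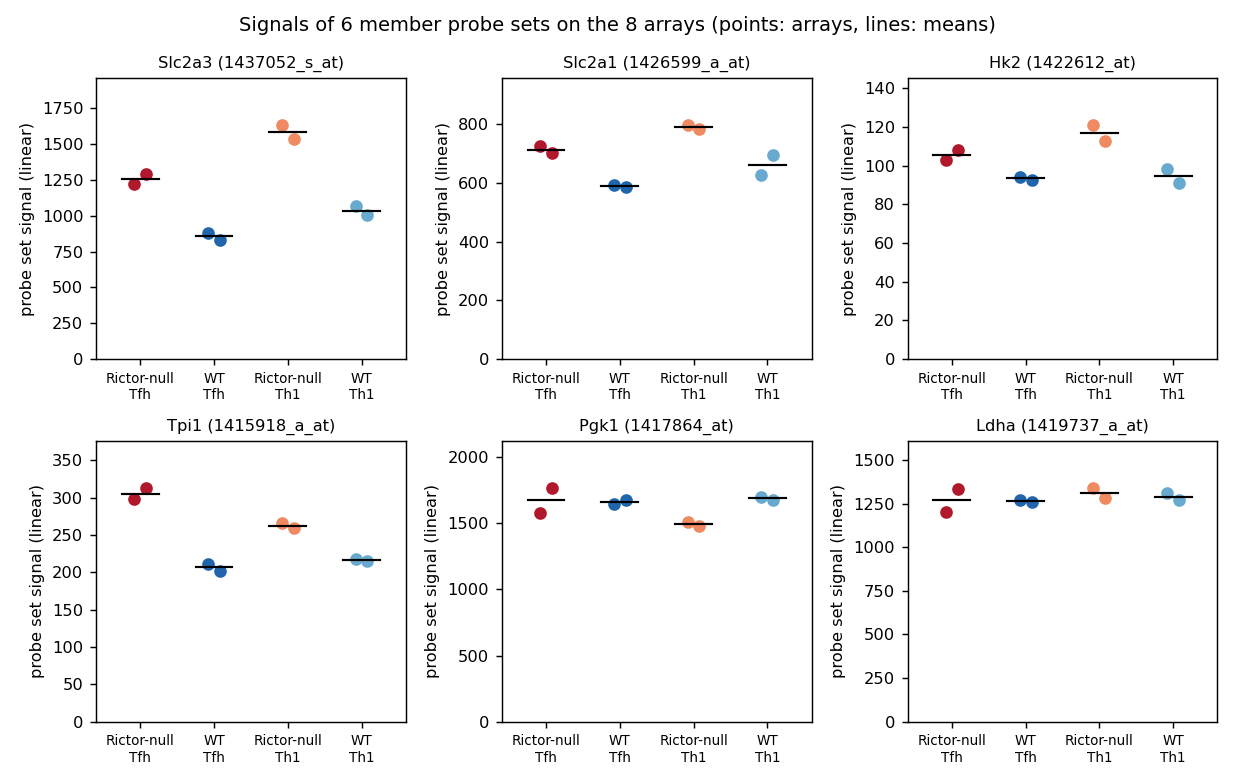
Signals of 1 probe set each of Slc2a3, Slc2a1, Hk2, Tpi1, Pgk1 and Ldha, on linear axes that start at 0, with 1 point per array and a line at the mean of each group of 2 arrays. Both Rictor-null groups lie above the WT group of the same cell type for Slc2a3, Slc2a1, Hk2 and Tpi1, and the groups overlap for Ldha.

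Slc2a3, the high-affinity transporter GLUT3, rose in Rictor-null cells of both types. Its probe set 1437052_s_at read 1225 and 1288 in Rictor-null Tfh cells, against 880 and 833 in WT Tfh. It read 1632 and 1535 in Rictor-null Th1 cells, against 1067 and 1006 in WT Th1. Every Rictor-null array lay above every WT array, of either cell type. Mean signals were 1.47 times WT in Tfh cells and 1.53 times WT in Th1 cells. On the log2 scale the rise was 0.54 ± 0.0635 (SE) in Tfh cells (limma adjusted p = 0.00111) and 0.60 ± 0.0635 in Th1 cells (limma adjusted p = 0.000514).

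A second Slc2a3 probe set, 1455898_x_at, also rose in both. Its signals were 393 and 390 in Rictor-null Tfh cells, against 278 and 262 in WT Tfh. In Th1 cells they were 504 and 536 in the Rictor-null arrays, against 324 and 327 in the WT arrays. The genotypes did not overlap within either cell type, and the rises were 0.49 ± 0.0584 in Tfh (limma adjusted p = 0.00119) and 0.63 ± 0.0584 in Th1 cells (limma adjusted p = 0.000234). These 2 probe sets were designed from the same sequence record, so they are not independent readings of the gene. The suffix of 1455898_x_at marks probes that resemble other sequences, and that of 1437052_s_at marks probes shared by several transcripts. The other 2 Slc2a3 probe sets were too dim to test, at 19.4 to 24.3 and at 9.29 to 12.4 over the 8 arrays. The rises of both tested probe sets kept their call under every alternative setting that was listed for the analysis (16 for 1437052_s_at and 15 for 1455898_x_at; limma adjusted p between 0.000324 and 0.0233 for 1437052_s_at in Tfh cells, and between 0.000131 and 0.00943 in Th1 cells).

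Slc2a1, the transporter GLUT1 that activated T cells are known to use, had 3 tested probe sets. Probe set 1426599_a_at read 724 and 700 in Rictor-null Tfh cells, against 594 and 586 in WT Tfh. It read 796 and 782 in Rictor-null Th1 cells, against 628 and 693 in WT Th1. The genotypes did not overlap in either cell type. The rise was 0.26 ± 0.0621 in Tfh cells (limma adjusted p = 0.0315) and 0.25 ± 0.0621 in Th1 cells (limma adjusted p = 0.0394), about 1.2-fold in each.

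Probe set 1426600_at of Slc2a1, designed from the same sequence record, read 301 and 332 in Rictor-null Tfh cells, against 254 and 255 in WT Tfh, and rose by 0.28 ± 0.0668 (limma adjusted p = 0.0299). That call held under 9 of 15 alternative settings and was lost without Rictor-null Tfh replicate 2 or either WT Tfh array (limma adjusted p up to 0.18). In Th1 cells it read 356 and 337 in the Rictor-null arrays, against 309 and 285 in the WT arrays. There its difference of 0.20 did not pass the test (limma adjusted p = 0.0986). The brightest Slc2a1 probe set, 1434773_a_at, passed in neither cell type, with 0.16 in Tfh (95% interval -0.08 to 0.39) and 0.34 in Th1 cells (0.11 to 0.57). Its Rictor-null Tfh arrays, at 904 and 736, overlapped WT Tfh, at 754 and 704. The Tfh rise of 1426599_a_at held under 8 of 15 alternative settings and was lost without any 1 of the 4 Tfh arrays (limma adjusted p up to 0.187). Its Th1 rise held under 6 of 15, and only WT Th1 replicate 2 among the Th1 arrays could be left out without losing it (limma adjusted p up to 0.247).

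Hexokinase 2, the inducible form of the first enzyme of glycolysis, was read by Hk2 probe set 1422612_at. Its signals were 103 and 108 in Rictor-null Tfh cells, against 94.4 and 92.9 in WT Tfh. In Th1 cells they were 121 and 113 in the Rictor-null arrays, against 98.3 and 91.3 in the WT arrays. The genotypes did not overlap in either cell type. Hk2 rose by 0.23 ± 0.0595 in Th1 cells (limma adjusted p = 0.0429), a call that 7 of 16 alternative settings kept and that was lost without any 1 of the 4 Th1 arrays (limma adjusted p up to 0.216). In Tfh cells the difference of 0.13 had a 95% interval of -0.00 to 0.27 and did not pass (limma adjusted p = 0.18).

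Hk1 encodes the hexokinase found in most tissues. Its tested probe set 1437974_a_at read 700 and 801 in Rictor-null Tfh cells, against 668 and 653 in WT Tfh. In Th1 cells it read 813 and 737 in the Rictor-null arrays, against 820 and 773 in the WT arrays. The genotypes were apart in Tfh cells and overlapped in Th1 cells. Neither difference passed the test, at 0.17 in Tfh and -0.04 in Th1 cells.

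Pfkl encodes the liver-type subunit of phosphofructokinase, the committed step of glycolysis, and its 3 probe sets went different ways. Probe set 1453541_at read 192 and 197 in Rictor-null Tfh cells, against 216 and 222 in WT Tfh. It read 194 on each array of Rictor-null Th1 cells, against 226 and 234 in WT Th1. The Rictor-null arrays were the lower ones in both cell types. It fell by 0.21 ± 0.0541 in Th1 cells (limma adjusted p = 0.0413), a call kept under 7 of 16 alternative settings and lost without any 1 of the 4 Th1 arrays (limma adjusted p up to 0.159). Its Tfh difference of -0.15 did not pass (limma adjusted p = 0.112) unless the arrays were quantile normalized again (-0.23). The other 2 Pfkl probe sets had differences of 0.21 and 0.10 in Tfh cells and of 0.01 and 0.04 in Th1 cells, and none of these passed.

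Aldolase A, the enzyme that splits the bisphosphate sugar, was read by 5 Aldoa probe sets, and all 5 carry the suffix for probes that resemble other sequences. None passed in either cell type. Their differences ran between -0.06 and 0.05 in Tfh cells and between -0.25 and 0.08 in Th1 cells. Probe set 1447734_x_at came nearest, with 373 and 392 in Rictor-null Th1 cells, against 484 and 437 in WT Th1 (difference -0.25, limma adjusted p = 0.053). After renewed quantile normalization it was called lower.

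Triose phosphate isomerase, which interconverts the triose phosphates made by aldolase, is encoded by Tpi1. Probe set 1415918_a_at read 298 and 313 in Rictor-null Tfh cells, against 211 and 202 in WT Tfh. It read 266 and 259 in Rictor-null Th1 cells, against 218 and 215 in WT Th1. All 4 Rictor-null arrays were above all 4 WT arrays, and the Rictor-null Tfh arrays were the highest. Tpi1 rose by 0.50 ± 0.0564 in Tfh cells (limma adjusted p = 0.000866), a signal 1.48 times WT, and by 0.25 ± 0.0564 in Th1 cells (limma adjusted p = 0.0269), 1.21 times WT.

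Probe set 1452927_x_at of Tpi1 read 263 and 251 in Rictor-null Tfh cells, against 198 on each WT Tfh array, and 241 and 246 in Rictor-null Th1 cells, against 199 and 208 in WT Th1. It carries the suffix for probes that resemble other sequences. It rose by 0.33 ± 0.0554 in Tfh cells (limma adjusted p = 0.00682) and by 0.23 ± 0.0554 in Th1 cells (limma adjusted p = 0.0337). The third, 1435659_a_at, was also higher in the Rictor-null arrays without overlap, by 0.33 and 0.30, and did not pass (limma adjusted p = 0.0579 and 0.0865). The Tfh rise of 1415918_a_at held under all 16 alternative settings, with values between 0.42 and 0.56. Its Th1 rise held under 7 of 16 and that of 1452927_x_at under 5 of 15, and both were lost without any 1 of the 4 Th1 arrays (limma adjusted p up to 0.141 and 0.184). The Tfh rise of 1452927_x_at was lost without either WT Tfh array (limma adjusted p up to 0.0759).

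Pgk1 encodes phosphoglycerate kinase, the first ATP-making step of glycolysis. Its brightest probe set, 1417864_at, read 1580 and 1768 in Rictor-null Tfh cells, against 1647 and 1673 in WT Tfh. It read 1513 and 1482 in Rictor-null Th1 cells, against 1702 and 1677 in WT Th1. The genotypes overlapped in Tfh cells, and the Rictor-null arrays were the lower ones in Th1 cells. None of the 3 Pgk1 probe sets passed, with differences between -0.08 and 0.01 in Tfh cells and between -0.17 and -0.12 in Th1 cells. After renewed quantile normalization, 1 of them (1439435_x_at) was called lower in Th1 cells.

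Pgam1, phosphoglycerate mutase, read 342 and 337 in Rictor-null Tfh cells, against 298 on each WT Tfh array. In Th1 cells it read 286 and 309 in the Rictor-null arrays, against 276 and 274 in the WT arrays. The Rictor-null arrays were higher without overlap in both cell types, yet neither difference passed (0.17 in Tfh, limma adjusted p = 0.0895, and 0.10 in Th1, limma adjusted p = 0.323).

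Ldha encodes the lactate dehydrogenase subunit that favours the making of lactate. Its signals were 1203 and 1334 in Rictor-null Tfh cells, against 1271 and 1259 in WT Tfh, and 1340 and 1282 in Rictor-null Th1 cells, against 1309 and 1268 in WT Th1. The genotypes overlapped in both cell types. The difference was 0.00 in Tfh cells (95% interval -0.14 to 0.15) and 0.02 in Th1 cells (-0.12 to 0.17), intervals that leave out rises of the size seen for Slc2a3.

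**Figure D2:**
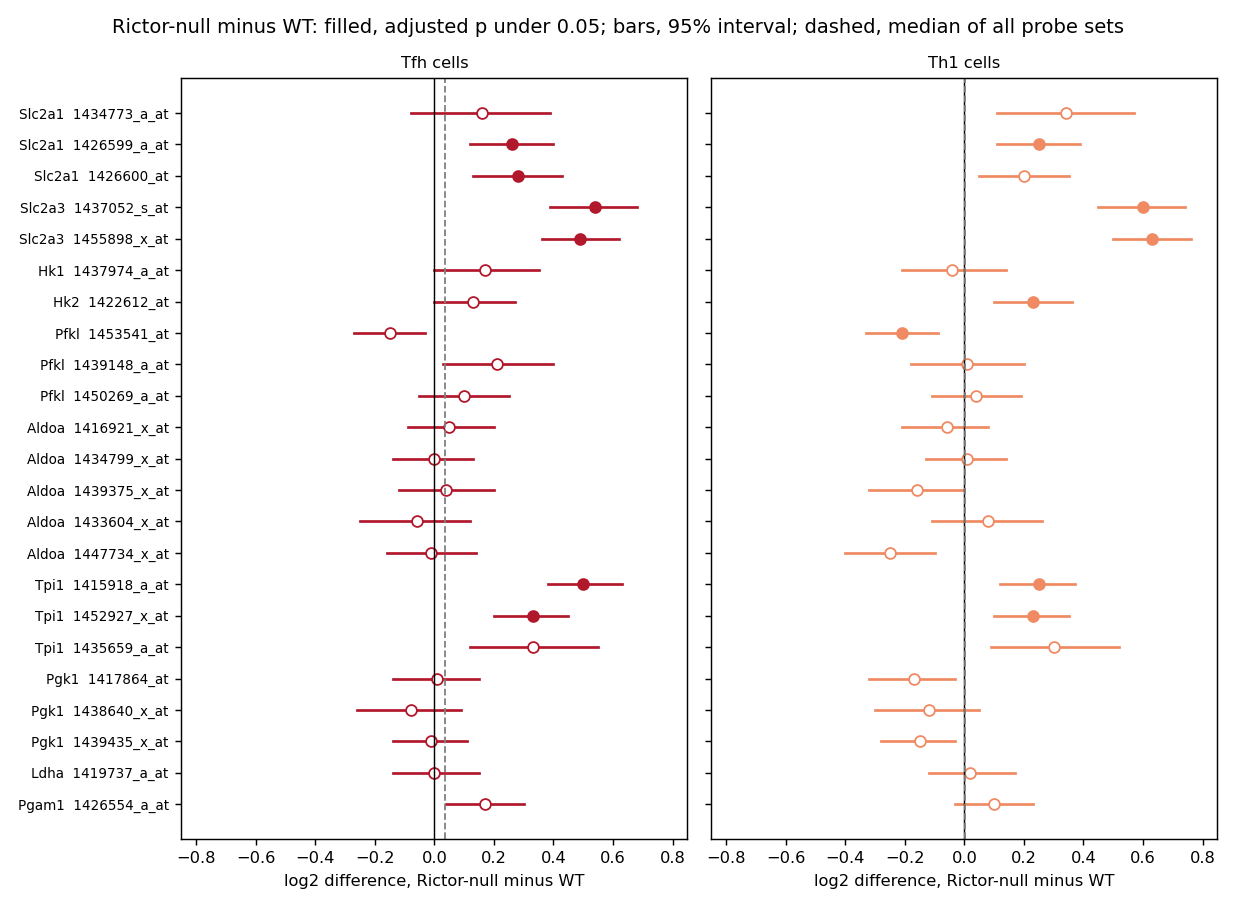
Difference between Rictor-null and WT cells on the log2 scale for each of the 23 tested member probe sets, in Tfh cells (left) and Th1 cells (right), with 95% intervals. Filled points passed at an adjusted p under 0.05, and the dashed line is the median of all probe sets. Slc2a3 and Tpi1 lie farthest to the right in Tfh cells and Slc2a3 in Th1 cells, while Aldoa, Pgk1 and Ldha lie around 0 or below it.

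Whether the effect of genotype differed between the cell types was tested as the difference of the 2 differences. No member probe set passed in limma at an adjusted p under 0.05, beside 1.26% of all probe sets. An unadjusted limma p under 0.05 was found for 4400 of all 23725 probe sets and for 2 of the 23 of members. The 2 were Tpi1 1415918_a_at, where the Tfh effect exceeded the Th1 effect by 0.26 ± 0.0797 (limma adjusted p = 0.156), and Aldoa 1447734_x_at, by 0.24 ± 0.0953 (limma adjusted p = 0.233). For Slc2a3 the estimates were -0.06 (95% interval -0.26 to 0.14) and -0.14 (-0.32 to 0.05). The lists of called genes in the 2 cell types thus do not show that the members responded differently.

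Tfh cells were compared with Th1 cells of the same genotype. Among members, 2 probe sets passed in Rictor-null cells and 2 in WT cells, all of Slc2a3 and all lower in Tfh cells. Of all probe sets, 10.3% were called in Rictor-null cells, with 6.06% of all tested lower and 4.22% higher in Tfh cells. In WT cells 9.4% were called, 7.09% lower and 2.31% higher. The member medians were 0.05 in Rictor-null cells and -0.03 in WT cells, against -0.01 and -0.05 over all probe sets.

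Slc2a3 1437052_s_at, with the signals given above, was lower in Tfh than in Th1 cells, with a difference of -0.33 ± 0.0635 in Rictor-null cells (limma adjusted p = 0.0129) and of -0.27 ± 0.0635 in WT cells (limma adjusted p = 0.035). For 1455898_x_at the differences were -0.38 ± 0.0584 in Rictor-null cells (limma adjusted p = 0.00434) and -0.24 ± 0.0584 in WT cells (limma adjusted p = 0.035). Neither pair of groups overlapped. In Rictor-null cells, 1437052_s_at lost its call when Rictor-null Th1 replicate 1 was left out (limma adjusted p = 0.0939). In WT cells both Slc2a3 calls were lost under renewed quantile normalization, with a pseudocount of 1, and without any 1 of the 4 WT arrays (limma adjusted p up to 0.213 and 0.22).

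Other members stayed short of the threshold between the cell types. Tpi1 1415918_a_at was at 298 and 313 in Rictor-null Tfh, against 266 and 259 in Rictor-null Th1 (0.20, limma adjusted p = 0.0577). In WT cells the same probe set differed by -0.06. Hk1 differed by -0.26 in WT cells (limma adjusted p = 0.0651), with 668 and 653 in WT Tfh, against 820 and 773 in WT Th1. Without overlap, 9 member probe sets were higher and 7 lower in Tfh cells among the Rictor-null arrays, beside 23.2% and 27.8% of all probe sets. Among the WT arrays 6 were higher and 12 lower, beside 21% and 44.1%. After renewed quantile normalization 3 member probe sets were called in Rictor-null cells (1 higher and 2 lower) and 0 in WT cells.

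**Figure D3:**
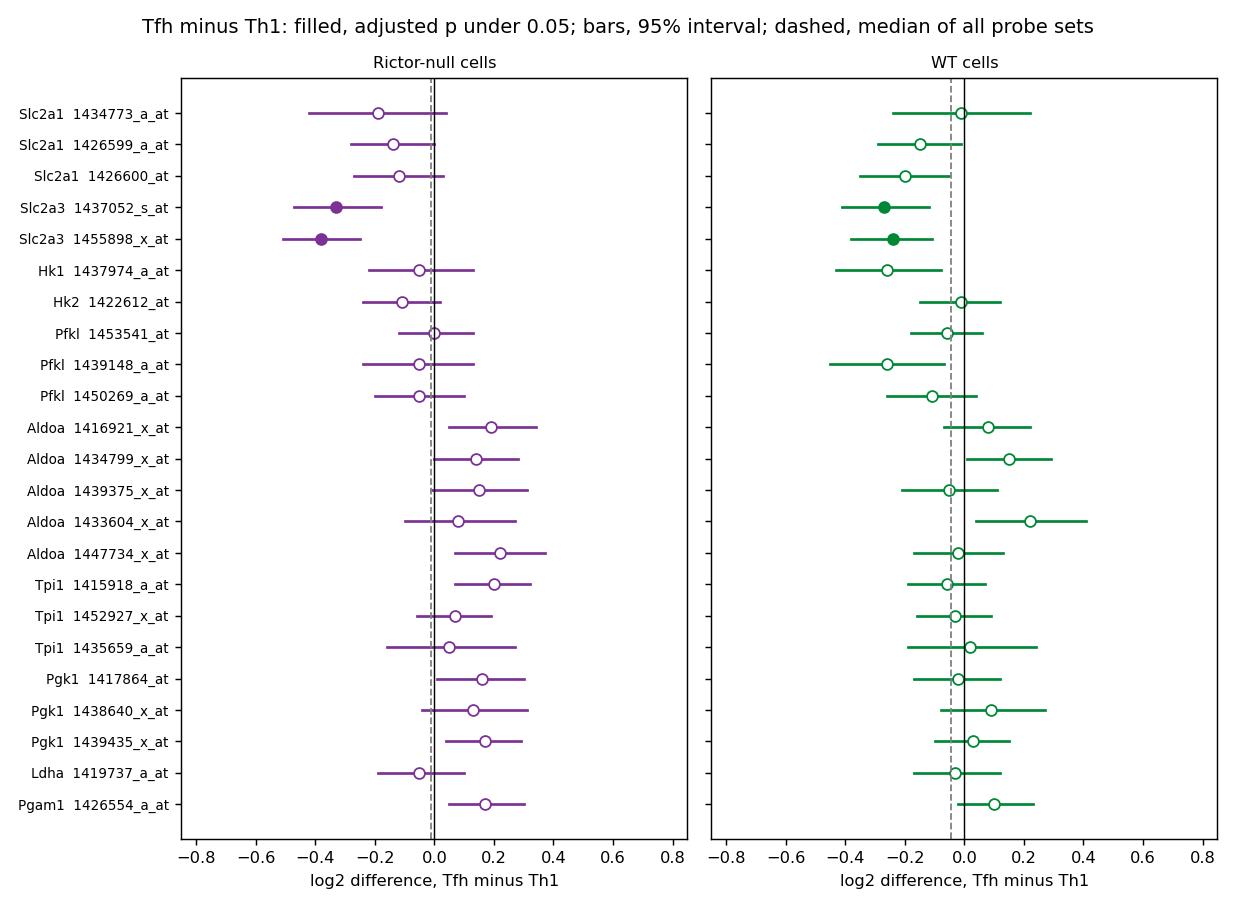
Difference between Tfh and Th1 cells on the log2 scale for the 23 tested member probe sets, in Rictor-null cells (left) and WT cells (right), with 95% intervals. Filled points passed at an adjusted p under 0.05. The 2 Slc2a3 probe sets are the filled ones in both panels, and both lie to the left of 0.

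The order of the 4 groups differed between members. For Slc2a3 (both tested probe sets) and for Slc2a1 1426599_a_at, the means ran from Rictor-null Th1, the highest, through Rictor-null Tfh and WT Th1 to WT Tfh, and no neighbouring groups overlapped. Hk2 had the same order, with overlap between WT Th1 and WT Tfh. For Tpi1 1415918_a_at the order was Rictor-null Tfh, Rictor-null Th1, WT Th1 and WT Tfh, again without overlap between neighbours. For Pfkl 1453541_at the WT groups were the higher ones, and the Rictor-null Tfh and Rictor-null Th1 arrays overlapped. For Ldha all neighbours in the order overlapped.

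Likeness to Slc2a3 was described by Pearson r between its brightest probe set and the brightest probe set of each other tested gene over the 8 arrays, which share their 4 groups. The 5 nearest genes were Ifitm2 (r = 0.993), an interferon-induced membrane protein gene, Gabpb1 (0.992), Magi3 (0.992), Spry1 (0.992), a feedback inhibitor of receptor kinase signalling, and Cwc25 (0.991). Ifitm2 read 92.4 and 108 in Rictor-null Tfh cells, against 51.3 and 43.3 in WT Tfh, and 153 and 142 in Rictor-null Th1 cells, against 68.1 and 56.8 in WT Th1. Among the members, Hk2 was nearest (r = 0.95), followed by Slc2a1 (0.74) and Tpi1 (0.73). The lowest values were those of Pgk1 (-0.62) and Pfkl (-0.79).

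The other genes of glucose metabolism were taken 1 brightest tested probe set per gene. By that count, 10.5% of 11217 genes were called in Rictor-null Tfh cells (9.02% higher, 1.46% lower) and 8.99% in Rictor-null Th1 cells (6.69% higher, 2.3% lower). Of 10 further glycolytic enzymes, 3 rose and 0 fell in Tfh cells, and 0 were called in Th1 cells. The 3 were Aldoc (0.33 ± 0.066, limma adjusted p = 0.0153), an aldolase, Pkm (0.32 ± 0.0802, limma adjusted p = 0.0385), the pyruvate kinase of the last step, and Bpgm (0.31 ± 0.0598, limma adjusted p = 0.0131), which makes bisphosphoglycerate. All 3 calls were lost without Rictor-null Tfh replicate 2 or WT Tfh replicate 1, and those of Pkm and Bpgm also without WT Tfh replicate 2 (limma adjusted p up to 0.152 for Aldoc, 0.234 for Pkm and 0.11 for Bpgm). The Pkm call held under 9 of 16 alternative settings.

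Ldhb, another lactate dehydrogenase subunit, is not among the 3 because its brightest probe set missed the threshold in Tfh cells (0.27, limma adjusted p = 0.0575). It is named after its values were seen. Its 3 dimmer probe sets all rose in Rictor-null Tfh cells, by 0.42 (limma adjusted p = 0.0121), 0.41 (limma adjusted p = 0.00502) and 0.54 (limma adjusted p = 0.00196). The last of them, 1434499_a_at, read 98.1 and 97.2 in Rictor-null Tfh, against 57.3 and 56.8 in WT Tfh, and 108 and 105 in Rictor-null Th1, against 73.4 and 89.9 in WT Th1. It also rose in Th1 cells (0.29, limma adjusted p = 0.0361), where the other 3 had 0.06 to 0.11 and did not pass.

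The 3 probe sets of Bpgm all rose in Rictor-null Tfh cells, by 0.31, 0.33 and 0.34. The brightest read 319 and 346 in Rictor-null Tfh, against 263 and 261 in WT Tfh, and 242 and 230 in Rictor-null Th1, against 256 and 251 in WT Th1. Rictor-null Tfh arrays were thus above all others, and Bpgm was also higher in Tfh than in Th1 cells among Rictor-null arrays (0.44, limma adjusted p = 0.00242). The test of the difference between the genotype effects did not pass for it (0.40, limma adjusted p = 0.0651). Gapdh, Eno1 and Gpi1 were not analysed here.

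Among 5 other hexose transporters, Slc2a6 rose in Tfh cells (0.26, limma adjusted p = 0.0416) and Slc2a9, also a urate transporter, fell in Th1 cells (-0.26, limma adjusted p = 0.0251). The Slc2a6 call held under 5 of 15 alternative settings and was lost without any 1 of 7 arrays, all but Rictor-null Tfh replicate 1 (limma adjusted p up to 0.245). The Slc2a9 call held under 9 of 16 and was lost without any 1 of the 4 Th1 arrays or either WT Tfh array (limma adjusted p up to 0.156), and its second probe set had -0.04. Of 7 genes of fructose bisphosphate control and gluconeogenesis, Pck2, a mitochondrial enzyme that makes phosphoenolpyruvate, rose in Tfh cells (0.58 ± 0.103, limma adjusted p = 0.00847, up to 0.0819 without either WT Tfh array), and 0 were called in Th1 cells. Of 7 pentose phosphate genes, 0 were called in Tfh cells and 1, the transketolase gene Tkt, fell in Th1 cells (-0.26, limma adjusted p = 0.0446). The Tkt probe set carries the suffix for probes that resemble other sequences, and its call held under 6 of 16 alternative settings and was lost without any 1 of the 4 Th1 arrays or either WT Tfh array (limma adjusted p up to 0.235).

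Of 11 genes of lactate and pyruvate transport and pyruvate dehydrogenase, 1 rose in each cell type and 0 fell by the brightest probe set. In Th1 cells the gene that rose was Slc16a1, the lactate carrier MCT1, with 432 and 459 in Rictor-null Th1, against 310 and 308 in WT Th1 (0.49 ± 0.0697, limma adjusted p = 0.00277). In Tfh cells Slc16a1 read 472 and 418 in the Rictor-null arrays, against 381 and 357 in the WT arrays (0.25, limma adjusted p = 0.0543). Bsg, the chaperone of that carrier, rose in Tfh cells (0.38 ± 0.0699, limma adjusted p = 0.0107) and had 0.22 in Th1 cells (limma adjusted p = 0.0933). Its Tfh call was lost without Rictor-null Tfh replicate 2 or either WT Tfh array (limma adjusted p up to 0.102).

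Pdk1, a kinase that switches off pyruvate dehydrogenase, was not called by its brightest probe set (-0.27 in Th1 cells, limma adjusted p = 0.403), which read 397 and 457 in Rictor-null Th1, against 457 and 590 in WT Th1. It is named after its values were seen. Its other 3 probe sets all fell in Rictor-null Th1 cells, with log2 differences of -0.52 (limma adjusted p = 0.00589), -0.54 (limma adjusted p = 0.00144) and -0.45 (limma adjusted p = 0.00306). Probe set 1435836_at read 222 and 223 in Rictor-null Th1, against 333 and 343 in WT Th1, and 186 and 216 in Rictor-null Tfh, against 227 and 216 in WT Tfh. In Tfh cells no Pdk1 probe set passed, with values between -0.28 and -0.03, and the difference of genotype effects between cell types passed for none of the 4.

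**Figure D4:**
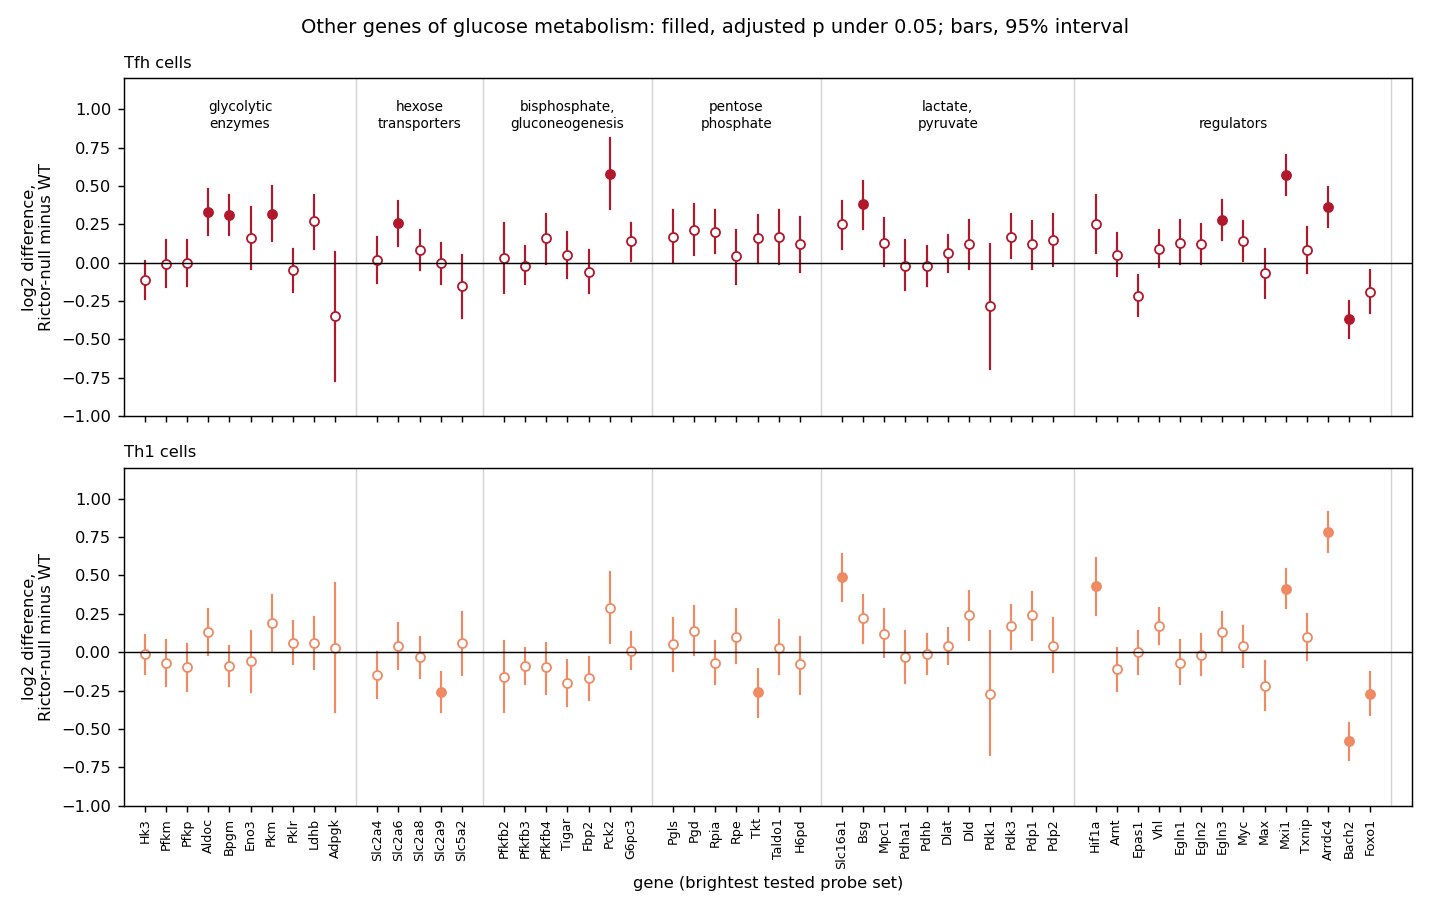
Difference between Rictor-null and WT cells on the log2 scale for the other genes of glucose metabolism and its regulators, 1 brightest probe set per gene, in Tfh cells (top) and Th1 cells (bottom), with 95% intervals. Filled points passed at an adjusted p under 0.05. Pck2 and Mxi1 are the highest filled points in Tfh cells and Arrdc4 in Th1 cells, and Bach2 is the lowest filled point in both.

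Of 14 regulators of glycolysis, 3 rose and 1 fell in Rictor-null Tfh cells, and 3 rose and 2 fell in Rictor-null Th1 cells. Mxi1, a MAX partner that opposes MYC, rose in both (0.57, limma adjusted p = 0.000444, and 0.41, limma adjusted p = 0.00214), while its dimmer probe set had 0.01 and -0.10. Arrdc4, a glucose-responsive arrestin gene related to Txnip, rose by 0.36 in Tfh (limma adjusted p = 0.00552) and by 0.78 in Th1 cells (limma adjusted p = 6.49e-05). Its dimmer probe set rose in Th1 cells (0.58) and not in Tfh cells (0.10). Bach2, a repressor that holds back effector genes in T cells, fell in both (-0.37, limma adjusted p = 0.00297, and -0.58, limma adjusted p = 0.000208). Of its dimmer probe sets, 1436515_at fell in Th1 cells (-0.34) and did not pass in Tfh cells (-0.13). The other, 1445460_at, fell in Tfh cells (-0.28) and did not pass in Th1 cells (-0.21). Egln3, a HIF prolyl hydroxylase, rose in Tfh cells by both probe sets (0.28 and 0.53), and Foxo1 fell in Th1 cells by 1 of 3 (-0.27). Myc (0.14 and 0.04) and Txnip (0.08 and 0.10) did not pass. By the brightest probe sets, the calls of Mxi1 and Bach2 in both cell types and of Arrdc4 in Th1 cells held under every alternative setting. The Arrdc4 call in Tfh cells was lost without either WT Tfh array (limma adjusted p up to 0.0716). That of the Egln3 probe set at 0.28 was lost without Rictor-null Tfh replicate 2 or either WT Tfh array (up to 0.164), and that of Foxo1 without any 1 of the 4 Th1 arrays or either WT Tfh array (up to 0.147).

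Hif1a, which encodes the oxygen-regulated subunit of HIF-1, had 3 tested probe sets that disagreed in part. The brightest read 2442 and 2247 in Rictor-null Tfh cells, against 2021 and 1902 in WT Tfh, and 2047 and 2428 in Rictor-null Th1 cells, against 1636 and 1669 in WT Th1. It rose in Th1 cells (0.43, limma adjusted p = 0.0142, up to 0.0807 without Rictor-null Th1 replicate 2 or either WT Th1 array) and had 0.25 in Tfh cells (limma adjusted p = 0.0869). Probe set 1416035_at of Hif1a rose in both (0.50 and 0.61), and 1448183_a_at rose in Tfh cells (0.68) with 0.13 in Th1 cells. Of 9 other hypoxia targets, Ankrd37 (0.26, lost without Rictor-null Tfh replicate 2 or either WT Tfh array, limma adjusted p up to 0.215) and Egln3 rose in Tfh cells, and Ddit4, an inhibitor of mTOR complex 1, fell in Th1 cells (-0.52, limma adjusted p = 0.000563). Ndrg1 was not called by its brightest probe set (-0.10 and -0.17), yet its probe set 1456174_x_at, noted after its values were seen, rose in both cell types (0.28 and 0.32).

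Other measures moved with genotype as well. Of 14 genes of cell handling and immediate early response, 8 rose and 0 fell in Rictor-null Tfh cells, and 7 rose and 1 fell in Rictor-null Th1 cells. Atf3 (0.59 and 0.79), Fosb (0.24 and 0.54) and Egr2 (0.45 and 0.33) rose in both, though a dimmer Egr2 probe set passed in neither. The fall was in Jun (-0.30). Hspa1b (-0.41), Zfp36 (-0.09), Jun (-0.06) and Hspa1a (-0.05) were lower in Rictor-null Tfh cells and did not pass. The Atf3 calls held under all 16 alternative settings, the Tfh call of Nr4a1 under 5 of 16. The summed signal of the 14, with Dusp1, Fos and Junb the brightest, was 27153 and 27188 in Rictor-null Tfh, against 24473 and 24034 in WT Tfh. It was 31991 and 32133 in Rictor-null Th1, against 28875 and 28496 in WT Th1. Both Rictor-null groups lay above the WT group of their cell type, as for Slc2a3, and Th1 cells above Tfh cells. The part of cell handling in the changes of the members was not tested.

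Markers of the sorted cells moved with genotype too. Of 9 genes known as markers of Tfh or Th1 cells, 5 rose and 0 fell in Rictor-null Tfh cells: Il21 (0.80), Pdcd1 (0.77), Cxcr5 (0.49), Bcl6 (0.36) and Slamf6 (0.34). Which of them served in the sort is not given. In Rictor-null Th1 cells 3 rose and 0 fell, Il21 (0.49), Slamf6 (0.46) and Pdcd1 (0.34), while Cxcr5 and Bcl6 were at 0.00. The summed signal of the 9 was 7037 and 7190 in Rictor-null Tfh, against 6342 and 6255 in WT Tfh, and 6549 and 6648 in Rictor-null Th1, against 5862 and 5807 in WT Th1. This sum mixes Tfh and Th1 genes, with Selplg, Ifng and Slamf6 the brightest, so it does not measure the share of either cell type. The part of the makeup of the sorted cells in the changes of the members was not tested.

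Many markers of B cells, myeloid cells, red cells and platelets were below the filter. Of 7 B cell markers on the array 2 were tested, Cd22 and Cd79b. Cd22 had -0.12 in Tfh cells and fell in Th1 cells (-0.57, limma adjusted p = 0.00483), and Cd79b (0.28 in Tfh, 0.38 in Th1) did not pass. The sum over all 7, those below the filter included, was 455 and 508 in Rictor-null Tfh, against 494 and 491 in WT Tfh, and 347 and 296 in Rictor-null Th1, against 415 and 370 in WT Th1. Cd79a, Ms4a1, Pax5, Ebf1 and Blnk were below the filter. In Th1 cells the B cell sum was lower on both Rictor-null arrays than on both WT arrays, and in Tfh cells the genotypes overlapped. Cd22, the brightest gene in this sum, read 164 and 133 in Rictor-null Th1, against 246 and 223 in WT Th1. Cd79b went the other way there, with 80.6 and 67.6, against 52.2 and 47.2. The lower sum thus followed Cd22 and does not measure the share of B cells.

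Of 14 myeloid and dendritic cell markers 7 were tested, and Cd68 rose in Tfh cells (0.38, limma adjusted p = 0.019). That call in Tfh cells held under 11 of 15 alternative settings. Csf1r (0.08), Flt3 (0.07) and Itgax (0.05) were slightly higher there, and Lyz2 (-0.17), Fcer1g (-0.15) and Siglech (-0.05) lower. None of these passed. The sum over all 14 was 482 and 521 in Rictor-null Tfh, against 483 and 507 in WT Tfh, and 414 and 404 in Rictor-null Th1, against 446 and 417 in WT Th1. Of 6 red cell and platelet markers 2 were tested, Gp9 (-0.12 in Tfh, 0.06 in Th1) and Hba-a2 (0.22 and -0.27), and neither passed. The sum over all 6 was 170 and 185 in Rictor-null Tfh, against 183 on each WT Tfh array, and 163 and 184 in Rictor-null Th1, against 180 and 189 in WT Th1.

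Of 6 CD8 and NK cell markers 4 were tested. Cd8b1 (0.28, limma adjusted p = 0.0179) and Eomes (0.33, limma adjusted p = 0.0278) rose in Rictor-null Tfh cells. The Cd8b1 call held under 13 of 16 alternative settings and the Eomes call under 11 of 16. Both were lost without either WT Tfh array. Nkg7 (0.10 in Tfh, 0.19 in Th1) and Cd8a (-0.07 in Tfh, -0.09 in Th1) did not pass. The sum over all 6 was 4247 and 4143 in Rictor-null Tfh, against 3792 and 3707 in WT Tfh, and 2553 and 2442 in Rictor-null Th1, against 2154 and 2258 in WT Th1. Nkg7 and Eomes were the brightest genes in this sum. Eomes, a T-box factor of CD8 and NK cells that some CD4 T cells also express, was higher in Tfh than in Th1 cells by 3.31 in Rictor-null and 3.18 in WT cells. The part of such cells in the genotype and cell type differences of the members was not tested. None of the 5 T cell markers tested, Cd3d, Cd3g and Cd3e among them, passed between genotypes.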

How the data were processed

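The data are 8 Affymetrix mouse arrays of sorted memory CD4 T cells. The authors deposited intensity values per probe set, which are linear. MAS5 and RMA are named, with no version or role, in the submitters' processing notes. Not given in the sources used here are the scaling between arrays and the background correction. Depth does not apply to arrays, whose number limits the precision. Symbols came from the platform annotation: 34945 probe sets had 1 symbol, 932 several and 9160 none. The symbols of all 26 member probe sets matched RefSeq by gene ID.

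Signals were taken to log2(signal + 32), a scale that understates differences of dim probe sets. Of 45037 probe sets, the 23725 that exceeded the array median on 2 or more arrays were tested with limma 3.58.1 in R 4.3.3 (1 mean per group, contrasts, empirical Bayes; residual df 4, prior df 5.37), with Benjamini-Hochberg adjustment over all of them and a threshold of 0.05. Rose and fell mean past that threshold. Errors are SE from the fit. The procedure was tested on simulated data.

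The genes named were all member probe sets, up to 4 called genes of each other list by smallest p, the 3 brightest markers of each other cell type, and the 5 genes closest in pattern to Slc2a3. Genes outside this rule (such as Rictor, Myc, Txnip, Eomes and single probe sets) were named after their values were seen. The members and lists were chosen with earlier results of these data known. The labels call the 2 arrays of a group biological replicates and give no pairing across groups. Correlations of same-numbered deviations were 0.31 between the Tfh groups and 0.125 between the Th1 groups. The lowest was -0.526, between Rictor-null Tfh and WT Th1 cells. Such values cannot settle whether arrays of different groups were paired or shared a batch. The 2 genotype comparisons share no arrays, but each shares arrays with the comparisons of cell types. Alternatives covered scaling, pseudocount, filter, probe set choice, array weights, the replicate block, a fit of only 4 arrays, and leaving out each array. Figures used matplotlib 3.10.9.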

Additional observations from a re-analysis of the deposited data

Results flagged for a closer look

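In 3 genes of the lists, none of them a member, the effect of genotype differed between Tfh and Th1 cells by the brightest probe set. Over all genes taken that way, 115 of 11217 passed this test. A dimmer probe set of Eomes also passed (0.64, limma adjusted p = 0.0102), while its brightest did not (0.13). For Arrdc4, the glucose-responsive arrestin gene, the effect was smaller in Tfh than in Th1 cells, with a difference of -0.42 ± 0.0814 on the log2 scale (limma adjusted p = 0.0452), a call that held under 3 of 14 alternative settings. It was lost under renewed quantile normalization, with a pseudocount of 1, with no filter, with the replicate block and without any 1 of 7 arrays, all but Rictor-null Tfh replicate 1 (limma adjusted p up to 0.271). Its signals were 55.6 and 56.1 in Rictor-null Tfh cells, against 37.4 and 35.8 in WT Tfh, and 93.6 and 90.7 in Rictor-null Th1 cells, against 42.8 and 38 in WT Th1, so the Rictor-null Th1 arrays were the highest. Its second probe set gave -0.48 (limma adjusted p = 0.0336). For Ddit4, the inhibitor of mTOR complex 1, the difference was 0.63 ± 0.0797 (limma adjusted p = 0.0104), with 0.11 in Tfh and -0.52 in Th1 cells. It held under 12 of 15 alternative settings and was lost without either WT Tfh array or Rictor-null Th1 replicate 1 (limma adjusted p up to 0.102). For Ier3, an immediate early gene, it was 0.58 ± 0.0917 (limma adjusted p = 0.0262), with 0.66 in Tfh and 0.08 in Th1 cells. It held under 8 of 15 and was lost with no filter and without any 1 of 6 arrays, the exceptions being replicate 1 of Rictor-null Tfh and replicate 2 of WT Th1 (limma adjusted p up to 0.186). Groups of 2 arrays are too small for a check of single deviating arrays.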

How the results depend on the processing

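Of 115 member values (23 probe sets in 5 comparisons), 17 passed, and 6 of these passed under every listed alternative setting: the rises of both Slc2a3 probe sets in both cell types, the rise of Tpi1 1415918_a_at in Tfh cells, and the lower Slc2a3 1455898_x_at in Rictor-null Tfh than Rictor-null Th1 cells. Over 1867 recomputed member values no called value reversed, 83 lost and 29 gained a call, and 73 values called in neither changed sign. The cause of these shifts was not tested. Where an array was left out, its lone partner was assumed to vary like the other groups.

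The count of members called in Tfh cells (6) was 2 with 1 brightest probe set per gene (of 10) 7 without both WT Th1 replicate 1 and Rictor-null Tfh replicate 2, a pair chosen after the data were seen, and 3 (without either WT Tfh array) to 7 with each array left out. In Th1 cells (7) it was 4 with a pseudocount of 1, 4 with brightest probe sets, 2 with only the 4 arrays compared, 3 without that pair, and 2 to 10 with each array left out. It was 4 without WT Th1 replicate 2, 10 without either Rictor-null Tfh array, and 2 without either WT Tfh array, either Rictor-null Th1 array or WT Th1 replicate 1. Between cell types, the 2 calls in Rictor-null cells were 1 with brightest probe sets and 1 (without Rictor-null Th1 replicate 1) to 5 (without Rictor-null Tfh replicate 1). The 2 calls in WT cells were 0 under renewed quantile normalization, 0 with a pseudocount of 1, 5 with array weights, 0 without that pair and 0 (without any 1 of the WT arrays) to 3 with each array left out. For the difference of genotype effects they were 0 to 0.

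With the replicate number as a block, the members called were 4 in Tfh cells, 2 in Th1 cells and 0 between cell types in WT cells. Under the block, all probe sets called between cell types in WT cells fell to 1217 and those of the difference of effects to 178.

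Over all probe sets, the count in Tfh cells (2387) was 1526 with brightest probe sets, 1521 without that pair, and 533 (without WT Tfh replicate 1) to 4420 (without Rictor-null Tfh replicate 1). In Th1 cells (2075) it was 1179 with brightest probe sets and 816 to 2862 with each array left out. Between cell types it was, in Rictor-null cells (2440), 1085 with brightest probe sets, 1495 with array weights, 1122 with only the 4 arrays compared and 898 to 3292. In WT cells (2230) it was 4898 with array weights, 3391 with only the 4 arrays compared and 207 to 3698. For the difference of effects (298) it was 155 with a pseudocount of 1, 77 with no filter, 137 with brightest probe sets and 14 to 2245. Renewed quantile normalization moved the share of higher calls to 64.5% (84% as deposited) in Tfh cells, 59.9% (73%) in Th1 cells, 51.1% (41.1%) between cell types in Rictor-null cells and 45.5% (24.6%) in WT cells.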
